A study of Schizosaccharomyces pombe with 15 samples.

Results

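The genes of 4 fission yeast transcription factors of the ATF/CREB family, atf1, pcr1, atf21 and atf31, were examined as places of binding: which of 4 mapped proteins, Atf1, Pcr1, Deb1 and Orc1, had peaks upstream of them. The 4 genes were taken by name from the reference annotation, out of 5093 protein-coding genes. A peak was counted at a gene when its summit, the position of highest signal, lay between 1000 bp before and 200 bp past the annotated start of the gene, here called its promoter window, or further upstream, as far as the next protein-coding gene.

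Proteins of this family have a basic region that contacts DNA and a leucine zipper through which they pair (bZIP). Atf1 is the target of the stress-activated kinase Sty1 and pairs with Pcr1. The pair binds the cAMP response element (CRE), a palindrome whose core is TGACGT, at stress genes, at a meiotic recombination hotspot and next to heterochromatin. Atf21 and Atf31 are relatives with roles in meiosis and sporulation. Many transcription factors bind upstream of their own gene or of their partner's gene, which can form feedback loops.

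The study mapped the proteins by chromatin immunoprecipitation and sequencing with an antibody against the FLAG tag. Its 15 samples fall into 8 groups, all in Schizosaccharomyces pombe of the mating type h90 with the markers ade6-M210, leu1-32 and ura4-D18. The tagged groups are Atf1 (atf1-3xFLAG-hph) and Pcr1 (pcr1-3xFLAG-hph), both with CenH∆::9xtetO-ura4, Deb1 (deb1-3xFLAG-hph) and Orc1 (orc1::5xFLAG-orc1-kan, with the further strain label SPM1047), each with 2 precipitations, and 2 precipitations of Atf1 from a strain that carries s1∆s2∆ beside the same CenH∆::9xtetO-ura4. The controls are 2 input samples each of the Deb1 and Orc1 strains and 1 precipitation from an untagged strain. All cells were grown in rich medium at 32 °C and kept for 2 hours at 18 °C before fixation, so that no unshifted cells stand beside them. Each group is a single strain, in which the tagged factor is made from its own locus. The deposited files hold 1 peak list per protein. No value below therefore has a replicate, the read depth is unknown, and the samples of the s1∆s2∆ strain enter no comparison.

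The lists held 1995 Atf1, 1567 Pcr1, 351 Deb1 and 1526 Orc1 peaks, with median folds of 2.25, 2.41, 4.35 and 2.21. Fold is the enrichment that the authors' peak caller gave each peak, and it is used only to rank peaks within a list. All 10 summits assigned to the 4 genes lay inside their intervals. All 4 genes lie on stretches where the positions of the lists and of the reference agreed without a shift.

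The sequences that carry the account are shown first, since they differ between the genes. They are written 5′ to 3′ on the strand of the gene, from the RefSeq assembly ASM294v3, with motif matches in capitals; a match is a description of the letters, not a measured site. The first is the stretch before the start of atf1 (chr2:1546067-1546216), with the full palindrome TGACGTCA and, before it, TGTTACC, the reverse complement of the word GGTAACA.
atf1 promoter: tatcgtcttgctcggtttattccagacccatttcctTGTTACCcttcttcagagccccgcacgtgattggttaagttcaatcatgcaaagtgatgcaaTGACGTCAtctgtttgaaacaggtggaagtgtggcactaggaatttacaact
The stretch of the same length before the start of pcr1 (chr1:4253601-4253750, minus strand) holds no core. The capitals mark the palindrome with 1 base changed, G5A, counted from 1 at the 5′ end of the palindrome.
pcr1 promoter: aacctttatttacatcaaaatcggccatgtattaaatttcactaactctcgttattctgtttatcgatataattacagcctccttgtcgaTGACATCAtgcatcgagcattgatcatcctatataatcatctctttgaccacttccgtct
Upstream of atf21 the palindrome stands in the stretch chr2:1722113-1722232.
atf21 upstream: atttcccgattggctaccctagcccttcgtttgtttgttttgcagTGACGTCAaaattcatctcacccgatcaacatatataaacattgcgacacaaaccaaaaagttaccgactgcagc

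Peaks of Atf1 and of Pcr1 stood in the promoter window or further upstream at 3 of the 4 genes, against 30.6% of all genes for Atf1 and 24.9% for Pcr1, and atf31 had none of any list. The stretch searched was longer at the 3 genes than at most genes. Their gaps to the next coding gene were 1441 bp (atf1), 1251 bp (pcr1) and 2516 bp (atf21), against a median of 461 bp. Only 1267 of the 5093 genes had a gap over 1000 bp. In the promoter window an Atf1 summit was found at 2 of the 4 genes, atf1 and pcr1, against 26.3% of all 5093 protein-coding genes. A Pcr1 summit was found at the same 2 genes, against 20.6% of all genes. Orc1, a subunit of the origin recognition complex, had a summit at these 2 genes as well, against 15.6% of all genes. Deb1, a DNA-binding protein, had a summit at atf1 alone, against 6.2% of all genes. For atf21 the peaks of Atf1 and Pcr1 had their summits just outside the window, 1112 and 1125 bp upstream. The summit closest to this limit on the inside was an Orc1 summit 843 bp upstream of pcr1. With 4 genes and 1 list per protein these counts are descriptions, for which no test was made.

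**Figure D1:**
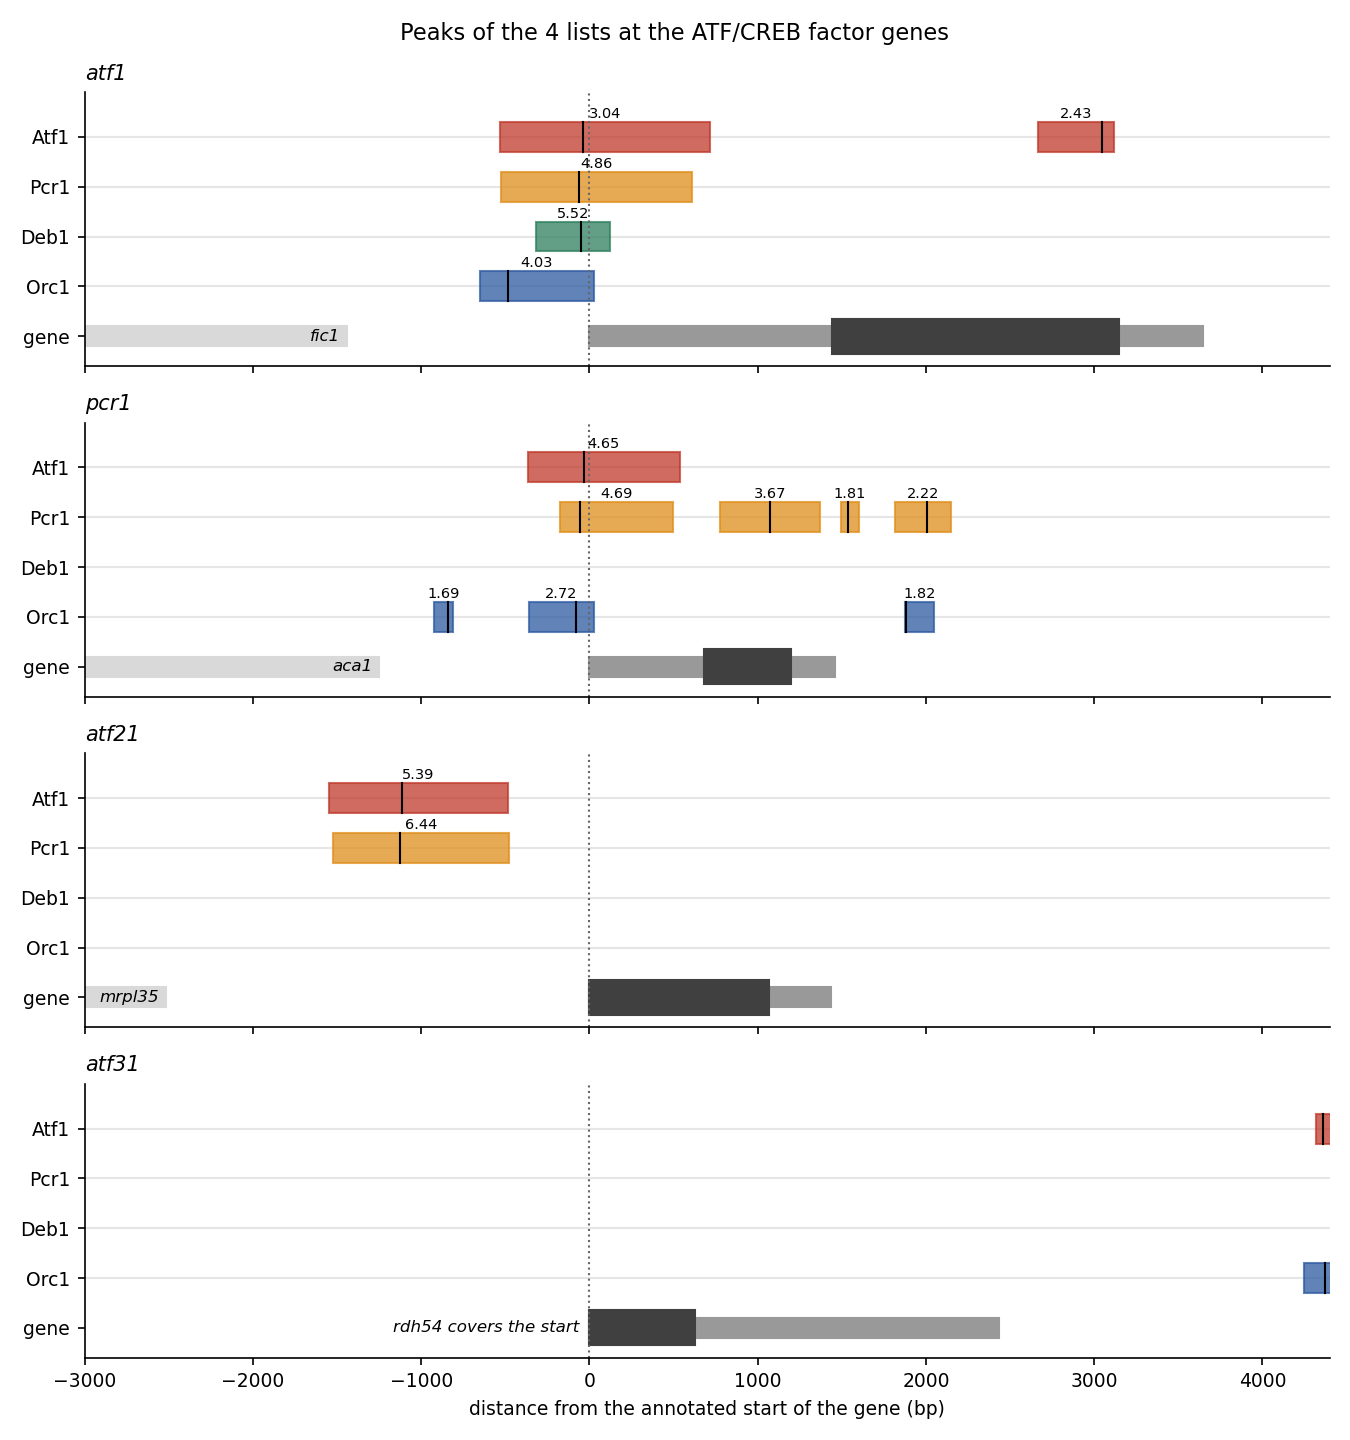
Peaks at the 4 genes, drawn by distance from the annotated start (x axis, bp, reading along the gene). Each coloured box is a peak of the list named at the left, the black line in it is the summit and the number above it is the fold; dark grey is the coding part with any intron in it, mid grey the rest of the gene and light grey the next coding gene. Peaks of all 4 lists meet before atf1, peaks of Atf1, Pcr1 and Orc1 before pcr1, peaks of Atf1 and Pcr1 before atf21, and atf31 has none near its start.

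The atf1 gene, SPBC29B5.01, runs from 1546217 to 1549862 on the plus strand of chromosome 2. Its leader, the stretch between the annotated start and the coding sequence, is 1444 bp long with its intron of 855 bp (1546465 to 1547319). This leader is longer than that of 99.6% of the 5093 genes, whose median is 80 bp. The next coding gene upstream is fic1, a gene of cell division, 1441 bp away. Over that gap the annotation places the non-coding gene SPNCRNA.1441 on the same strand (1545428 to 1546254) and SPNCRNA.5237 on the opposite strand (1545652 to 1546860), and all 4 summits at atf1 fell within both of these.

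At atf1 the 3 transcription factors had their summits almost on top of each other. The Atf1 peak (chromosome 2, 1545685 to 1546936) reached a fold of 3.04 (rank 409 of 1995), and its summit lay 39 bp upstream of the start. The Pcr1 peak (1545693 to 1546828) had a fold of 4.86, rank 108 of 1567, with its summit 62 bp upstream. The Deb1 peak (1545898 to 1546339) had a fold of 5.52, rank 74 of 351, with its summit 49 bp upstream. These summits spanned 23 bp. Among the 203 genes with summits of these 3 proteins in the promoter window the median span was 111 bp, and 12 genes (5.91%, atf1 included) had a span of 23 bp or less. The Atf1 and Deb1 summits were 10 bp apart at atf1, against a median of 87 bp (quartiles 39 and 161) over the 238 genes with both. The Deb1 peak lay wholly inside the Atf1 peak and inside the Pcr1 peak, with 442 bp of overlap in each case.

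Orc1 had its summit next to this cluster rather than on it, though its peak covered the summits of Atf1, Pcr1 and Deb1. Its peak at atf1 (1545566 to 1546243) had a fold of 4.03, rank 73 of 1526, higher than 95.2% of the Orc1 list. The summit lay 482 bp upstream of the start, 443 bp from the Atf1 summit and 433 bp from the Deb1 summit. Over the 326 genes with both proteins the median distance between Atf1 and Orc1 summits was 177 bp (quartiles 35 and 475), so the distance at atf1 was within the common range. The peaks themselves overlapped, by 559 bp for Atf1 and Orc1. Replication origins of fission yeast are rich in A and T. Within 150 bp of the Orc1 summit at atf1 the AT content was 72.1%, above that of 90.3% of 1219 Orc1 summits, whose median was 67.1%. Around the Atf1, Pcr1 and Deb1 summits at atf1 it was 63.1%, 62.8% and 63.1%, close to the medians of those lists, 62.5%, 62.5% and 64.1%.

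**Figure D2:**
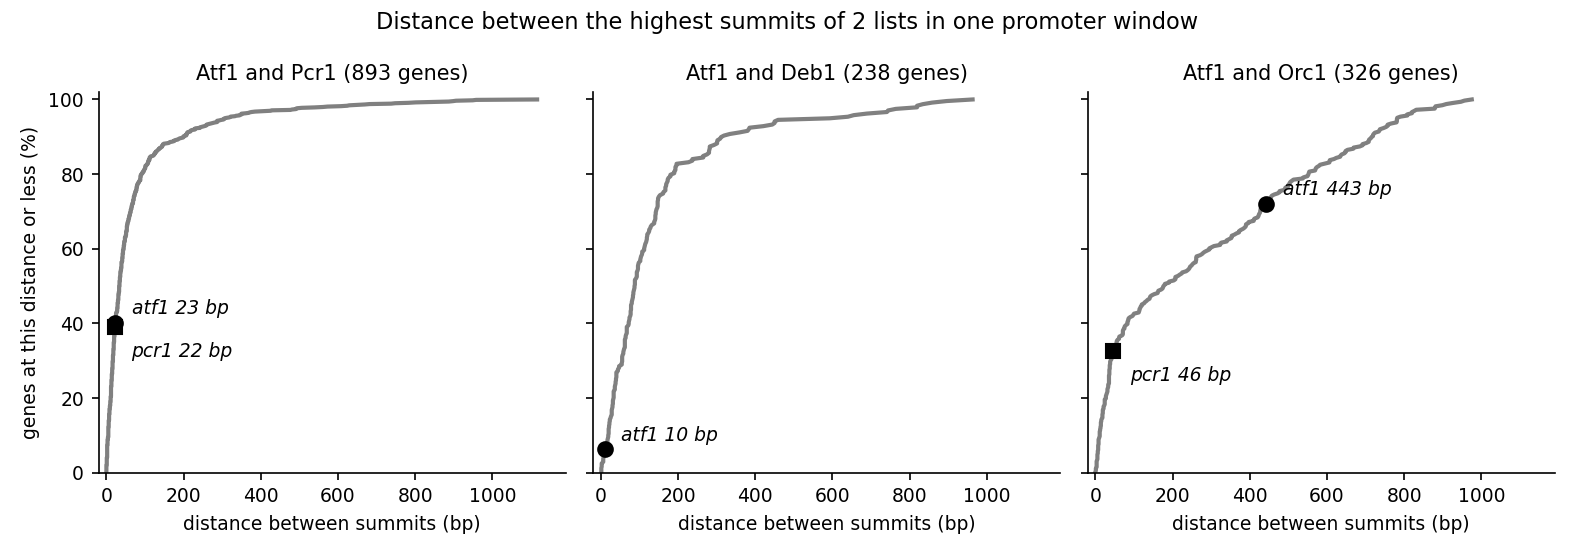
Distance between the highest summits of 2 lists within the same promoter window (x axis, bp) and the share of genes at that distance or less (y axis, %), over all genes with both lists. The Atf1 and Pcr1 summits are 23 bp apart at atf1 and 22 bp at pcr1, the Atf1 and Deb1 summits 10 bp apart at atf1, and the Atf1 and Orc1 summits 443 bp apart at atf1 and 46 bp at pcr1.

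The promoter of atf1 was 1 of 62 genes with a summit of all 4 proteins in the window, 1.22% of all genes. Among these 62 genes, atf1 was 35th by Atf1 fold, 9th by Pcr1 fold, 12th by Deb1 fold and 7th by Orc1 fold. The median folds of the 62 were 3.14 in the Atf1 list, 3.59 in the Pcr1 list, 4.22 in the Deb1 list and 2.67 in the Orc1 list. Its Atf1 fold was thus near the middle of this group, while its other folds stood in the upper part. Genes that share an upstream region can hold the same peaks: fic1 counted the same Orc1 peak in its own window, with the summit 960 bp upstream of its start.

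The palindrome TGACGTCA, shown in capitals above, lies 52 to 45 bp before the start of atf1 (chromosome 2, 1546165 to 1546172). Its centre was 10 bp from the Atf1 summit and 14 bp from the Pcr1 summit, and the Deb1 summit fell inside it. The palindrome stood in the promoter window of 32 of the 5093 genes (0.628%, both strands), and the core TGACGT, which the palindrome contains, in that of 17.0%. Of the 4 genes, atf1 and atf21 had the palindrome, and with it the core, in their windows. The GGTAACA word stands on the minus strand 114 to 108 bp before the start, 62 bp from the Deb1 summit and inside the peaks of all 4 lists. A second copy lies 544 bp into the leader, outside the Deb1 and Orc1 peaks. This word occurred in the window of 14.0% of all genes. It stood within 100 bp of 27.0% of 296 Deb1 summits, against 4.66% for the Atf1 list, 5.28% for the Pcr1 list and 1.39% for the Orc1 list. The word was chosen with earlier results of these data known. Its share at Deb1 summits is therefore a description, not independent evidence of a Deb1 motif. Palindrome and word occurred together in the windows of 4 genes (0.0785%), and of these atf1 was the single one with a Deb1 or an Orc1 summit in its window. Among the 62 genes with all 4 proteins, 32.3% had the core in their windows, 8.06% the palindrome, 29.0% the word and 1.61%, atf1 alone, both palindrome and word. The pairing of the palindrome with the word was looked for after both had been seen at atf1.

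The other genes with that pair, tdh1, cab5 and pgm2, differ among themselves. The window of tdh1, which encodes glyceraldehyde-3-phosphate dehydrogenase, held an Atf1 peak of fold 4.03 and a Pcr1 peak of fold 5.71. The window of cab5 held an Atf1 peak of fold 5.52 and a Pcr1 peak of fold 6.82, and that of pgm2 held no summit of any list.

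**Figure D3:**
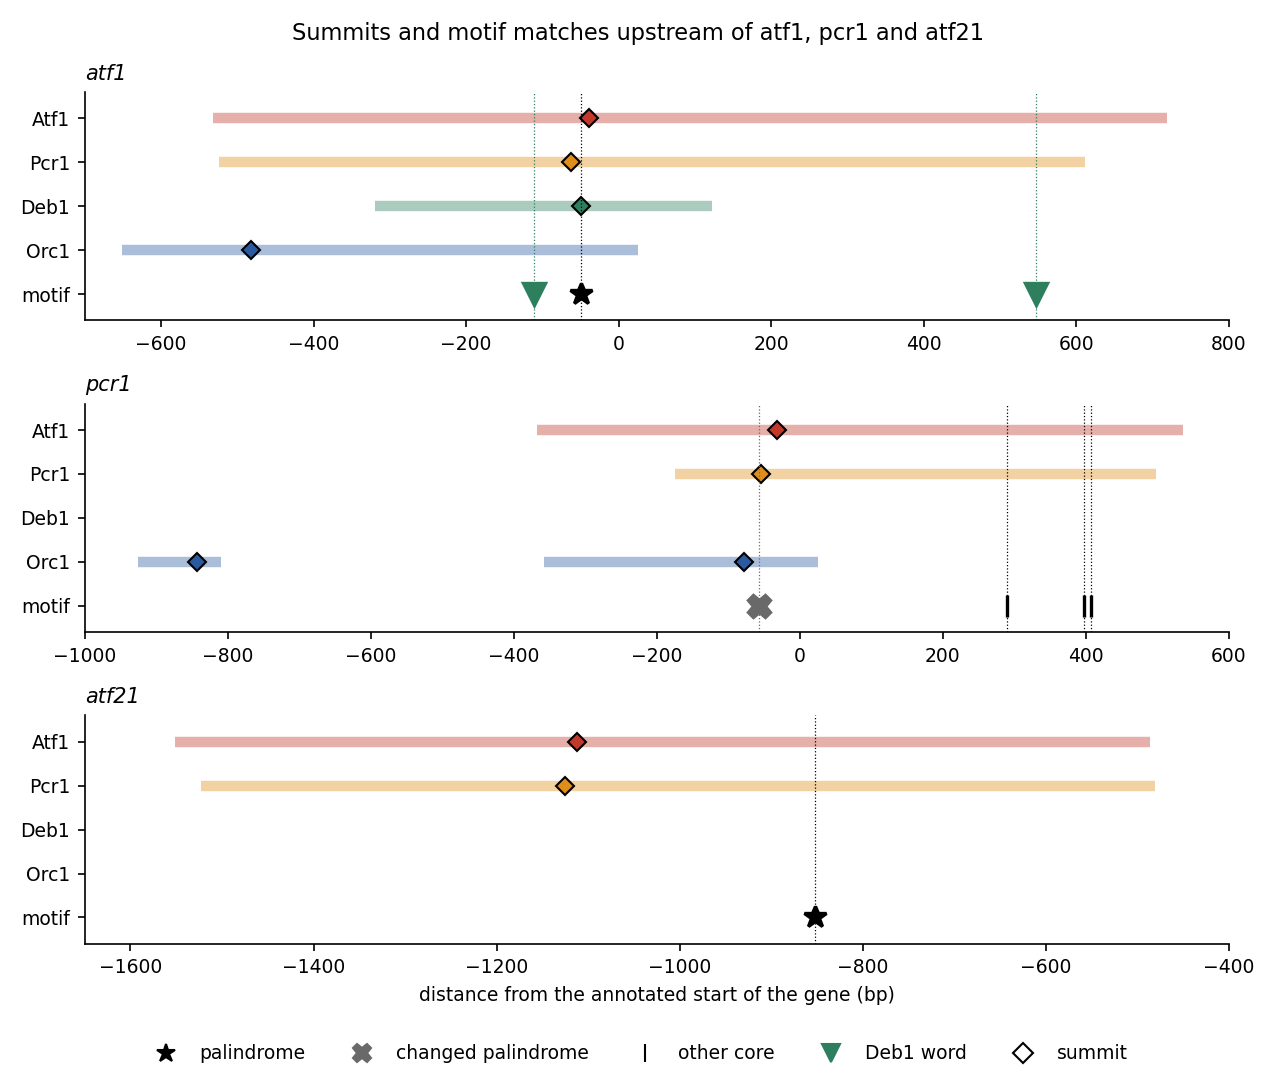
Summits (diamonds) and peak intervals (pale bars) of each list upstream of atf1, pcr1 and atf21, by distance from the annotated start (x axis, bp, a different range for each gene), with motif matches on the lowest line. At atf1 the star of the palindrome stands under the Atf1, Pcr1 and Deb1 summits, at pcr1 the cross of the changed palindrome stands under the Pcr1 summit, and at atf21 the palindrome lies inside both peaks but 260 bp from the Atf1 summit.

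The pcr1 gene, SPAC21E11.03C, runs from 4252142 to 4253600 on the minus strand of chromosome 1. Its leader of 682 bp is longer than that of 96.7% of genes, and the gap to the next coding gene, aca1, is 1251 bp. Atf1, Pcr1 and Orc1 had summits within 100 bp of its start. The non-coding gene SPNCRNA.3903, on the opposite strand (4253365 to 4253923), covers these summits. The Atf1 peak (4253064 to 4253968) reached a fold of 4.65 (rank 73 of 1995) with its summit 32 bp upstream. The Pcr1 peak (4253102 to 4253775) reached a fold of 4.69 (rank 123 of 1567) with its summit 54 bp upstream. These folds were above those of 96.3% of the Atf1 list and 92.2% of the Pcr1 list. The 2 summits were 22 bp apart, against a median of 34 bp over the 893 genes with both proteins.

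Orc1 had a pair of summits upstream of pcr1. The one of higher fold (4253575 to 4253958) had a fold of 2.72, rank 401 of 1526, with its summit 78 bp upstream, 46 bp from the Atf1 summit and 24 bp from the Pcr1 summit. The other (4254410 to 4254525) reached a fold of 1.69 (rank 1366 of 1526), and its summit, 843 bp upstream, also lay in the window of aca1. Its −log10 q of 4.5 was among the lowest of the peaks described here, against 23.7 for the nearer one. The AT content within 150 bp was 68.8% at the nearer Orc1 summit and 70.1% at the other. These were above 64.9% and 76.4% of 1219 Orc1 summits. Around the Atf1 and Pcr1 summits at pcr1 it was 67.1% and 69.1%, above 81.5% of 1609 Atf1 and 93.4% of 1269 Pcr1 summits. The nearest Deb1 summit to the start of pcr1 was 34255 bp away, farther than for 81.7% of genes. Summits of Atf1, Pcr1 and Orc1 without one of Deb1 were found at 3.65% of all genes.

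At pcr1 the summits near the start lay close to the changed palindrome shown above, 60 to 53 bp before the start (chromosome 1, 4253653 to 4253660). Its centre was 2 bp from the Pcr1 summit, 24 bp from the Atf1 summit and 22 bp from the Orc1 summit. The same changed palindrome stood in the promoter window of 2.75% of genes and within 100 bp of 2.86% of 1609 Atf1 summits and 3.39% of 1269 Pcr1 summits. It was searched for after it had been noticed at pcr1. Any palindrome with 1 base changed stood within 100 bp of 11.4% of Atf1 and 12.4% of Pcr1 summits. The unchanged core occurs 3 times in the pcr1 leader, starting 287, 394 and 404 bp after the start, all inside the Atf1 and the Pcr1 peak. The first site is at chr1:4253296-4253325 and the other 2 are at chr1:4253184-4253213, on the minus strand, with the cores in capitals.
pcr1 leader, first site: gcgctgtacattTGACGTgtgtcgtgagat
pcr1 leader, other sites: atagaatTGACGTttctTGACGTcttgtca
The Atf1 and Pcr1 summits were thus 322 to 460 bp away from these cores. The core stood within 100 bp of 15.7% of Atf1 and 14.1% of Pcr1 summits in the lists.

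In the Atf1 and Pcr1 lists the highest folds at the family's genes belonged to atf21. This gene, SPBC2F12.09C (chromosome 2, 1723013 to 1724450, plus strand), has a gap of 2516 bp to mrpl35, a gene of a mitochondrial ribosomal protein, longer than the gap of 95.7% of genes. Its record is marked as partial and begins at the start codon, so that distances to atf21 are distances to that codon. The Atf1 peak (1721462 to 1722527) had a fold of 5.39, rank 13 of 1995. The Pcr1 peak (1721490 to 1722532) had a fold of 6.44, rank 6 of 1567. Their summits, 1112 and 1125 bp upstream, were 13 bp apart, and the peaks overlapped by 1038 bp. Among the 1267 genes with a gap over 1000 bp, 30.4% had an Atf1 summit and 25.6% a Pcr1 summit in the part beyond the promoter window. Such a summit stood there with none in the window, as at atf21, for 17.4% of these genes in the Atf1 list and 17.3% in the Pcr1 list. No Deb1 or Orc1 summit lay in the gap: the nearest were 36157 bp from the start for Deb1 and 6014 bp for Orc1.

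Both peaks of atf21 were wide, 1066 and 1043 bp, against median widths of 264 bp for Atf1 and 250 bp for Pcr1. The Atf1 and Pcr1 peaks before atf1 were wider still, 1252 and 1136 bp, and those before pcr1 measured 905 and 674 bp. The palindrome shown above for atf21, 855 to 848 bp before its start, lay inside both atf21 peaks. It was 260 bp from the Atf1 summit and 274 bp from the Pcr1 summit. A further core, 1828 bp before the start, lay outside them. Around the summits (chr2:1721813-1721962) the sequence holds no core, and none of its letters are capitals.
atf21 summits: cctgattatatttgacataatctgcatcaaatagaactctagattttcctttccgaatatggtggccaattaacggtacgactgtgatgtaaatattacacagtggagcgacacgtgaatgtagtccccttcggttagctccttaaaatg
No palindrome with 1 base changed was found within 100 bp of either summit. The long non-coding gene SPNCRNA.1457, on the opposite strand, covers both summits and all of atf21 (1721083 to 1724641).

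**Figure D4:**
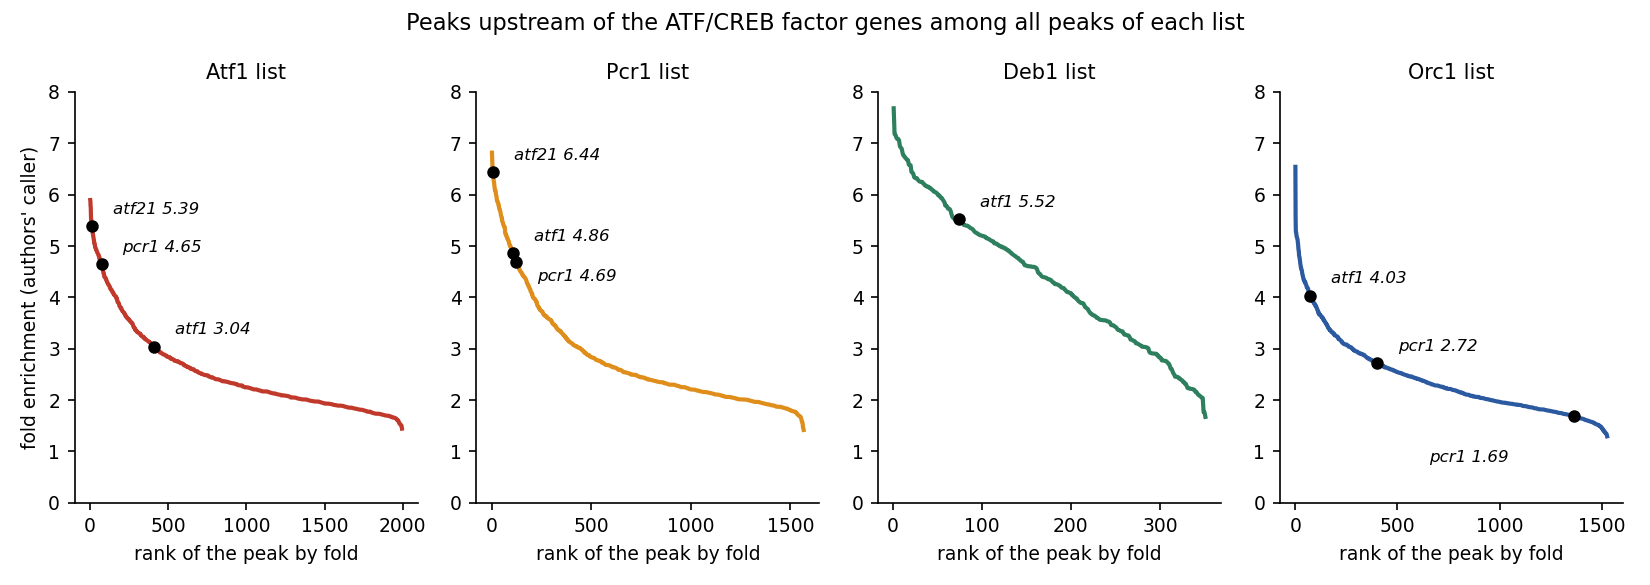
Fold enrichment given by the authors' caller (y axis) against the rank of the peak by fold (x axis) for every peak of each list, with the peaks upstream of the 4 genes as black points. The atf21 peaks stand near the top of the Atf1 and Pcr1 lists at 5.39 and 6.44. The Deb1 point is atf1 at 5.52, and the Orc1 points run from 4.03 at atf1 to 1.69 at pcr1.

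The fourth gene, atf31 (SPAC22F3.02, chromosome 1, 705042 to 707473, minus strand), stood apart from the others. No list had a summit in its promoter window, as was also the case for atf21 and for 61.1% of all genes. It has no gap upstream: its start lies inside the gene rdh54, which runs on the other strand and encodes a protein of meiotic recombination. A start inside another coding gene was found for 8.86% of genes. Its record, too, is partial and begins at the start codon. The nearest Atf1 and Orc1 summits, 4359 and 4373 bp from its start, lay beyond the end of the gene at the tRNA gene SPATRNAVAL.02 (703075 to 703147), with folds of 2.37 and 2.68. The Atf1 distance was longer than that of 70.1% of genes, and the Orc1 distance longer than that of 45.4%. The nearest Pcr1 summit was 16697 bp away and the nearest Deb1 summit 55839 bp away, farther than for 95.9% and 94.3% of genes. The promoter window of atf31 holds neither the core nor GGTAACA.

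How far the counts rest on the limit of 1000 bp can be read from windows of other lengths. With an upstream limit of 100 bp, Atf1 and Pcr1 already had summits at atf1 and pcr1, against 8.74% and 6.6% of all genes. At 1200 bp atf21 joined them and 3 of the 4 genes were counted for each of the 2 proteins, against 28.4% of all genes for Atf1 and 22.5% for Pcr1. The Deb1 count was 1 gene from 100 to 2000 bp, while the share of all genes rose from 1.55% to 8.54%. The Orc1 count was 1 gene from a limit of 100 bp, against 3.4% of all genes. It was 2 genes from 500 to 2000 bp, while the share rose from 9.78% to 21.4%.

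**Figure D5:**
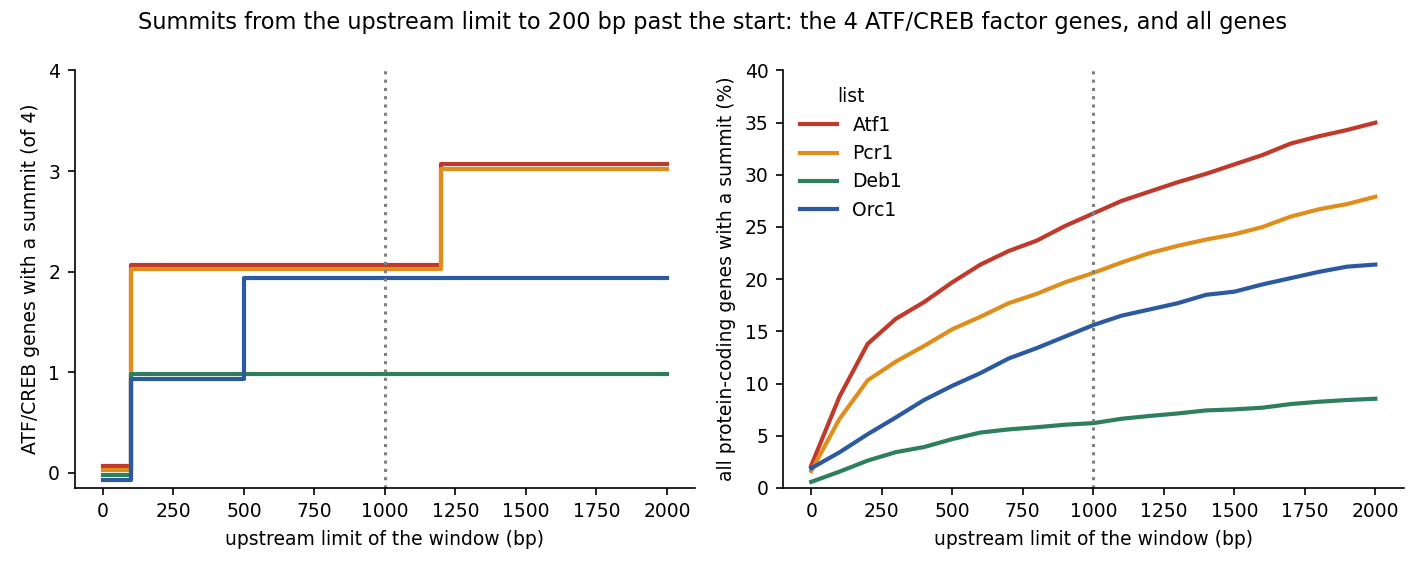
Left, number of the 4 genes with a summit (y axis) as the upstream limit of the window grows (x axis, bp, steps of 100), with lines drawn slightly apart so that all can be seen; right, the share of all 5093 protein-coding genes (y axis, %). The dotted line marks 1000 bp, where the genes with a summit number 2 for Atf1, Pcr1 and Orc1 and 1 for Deb1, beside 26.3%, 20.6%, 15.6% and 6.2% of all genes.

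Further peaks lay inside or just past the coding part of the tagged genes themselves, and were examined after they had been seen. At atf1 the Atf1 list had a second peak (chromosome 2, 1548882 to 1549334, fold 2.43, rank 790 of 1995), with its summit 98 bp before the end of the coding sequence. No other list had a summit in the body of atf1 or in the 1000 bp past it. At pcr1 the Pcr1 list had a peak (chromosome 1, 4252227 to 4252822, fold 3.67, rank 261 of 1567), with its summit 125 bp before the end of the coding sequence. Others of fold 1.81 and 2.22 had summits 337 and 809 bp past that end. The Atf1 list had no summit there, and the Orc1 list had 1 of fold 1.82, 686 bp past the end. Each of these coding peaks thus belonged to the list of the protein whose gene it lies in.

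Over all genes, a summit stood in the body, more than 200 bp past the start, at 12.8% in the Atf1 list, 8.95% in the Pcr1 list, 0.786% in the Deb1 list and 7.12% in the Orc1 list. Of all genes, 5.82% had an Atf1 summit and no Pcr1 summit in the gene body, and 2.01% had a Pcr1 summit and no Atf1 summit. A summit within 200 bp of the end of the coding sequence was found at 4.26% of genes for Atf1 and at 3.22% for Pcr1. In the genotypes as written, the tag and the hph marker follow the gene in the Atf1, Pcr1 and Deb1 strains, while in the Orc1 strain the tag precedes it. The Deb1 list had no summit in the body of deb1 or within 1000 bp past it. At orc1 the Orc1 list had none in the body and 1 of fold 1.72, 426 bp past the end of the coding sequence. Whether the tagged locus has a part in the peaks of Atf1 and Pcr1 was not tested.

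The other bZIP genes pap1, a factor of the oxidative stress response, and zip1 were compared with the family. At pap1 the Atf1 fold was 3.59 and the Pcr1 fold 3.57, with summits 118 and 95 bp upstream. At zip1 they were 2.80 and 2.54, with summits 66 and 82 bp upstream. Neither gene had a Deb1 or Orc1 summit in its window. The genes of the other precipitated proteins, deb1 and orc1, had no summit of any list in theirs. Of the coding genes next to the family, mrpl35 had none, and rdh54 had the Atf1 and Orc1 peaks of the tRNA gene named above.

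Atf1 acts at the end of the Sty1 kinase pathway, and 13 genes of that pathway were listed for comparison. In the promoter window, 8 of these 13 had an Atf1 summit (61.5%, median fold 4.13), against 26.3% of all genes, and 8 had a Pcr1 summit (61.5%), against 20.6%. A Deb1 summit was found at 2 of the 13 (15.4%), against 6.2% of all genes, and an Orc1 summit at 3 (23.1%), against 15.6%. None of the 13 had all 4, against 1.22% of all genes, a share at which a list of 13 would rarely hold such a gene. By Atf1 fold the first were pyp2 (4.94) and srk1 (4.88), which encode a phosphatase and a kinase acting with Sty1, rad24 (4.77), a 14-3-3 protein gene, and ptc1 (4.40), a phosphatase gene. The genes sty1 and wis1, of the kinase and of the kinase that activates it, had Atf1 folds of 2.33 and 2.47. The Deb1 summits were at pyp2 (fold 5.99, 977 bp upstream) and mcs4 (fold 3.89, 38 bp upstream), a response regulator gene.

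Genes with a like pattern were ranked by the percentile of their highest promoter peak within each of the 4 lists, as a Euclidean distance in percentile points. Nearest to atf1 were alr2 (18.6 points), vps38 (19.6 points) and nep2 (22.4 points). Nearest to pcr1 were ptl2 (4.8 points), SPAC186.03 (7.8 points) and gas2 (8.5 points), each with Atf1, Pcr1 and Orc1 summits and none of Deb1. The folds of ptl2 were 4.24 for Atf1, 4.84 for Pcr1 and 2.88 for Orc1, and those of pcr1 were 4.65, 4.69 and 2.72. The likeness rests on 4 values per gene.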

How the data were processed

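Chromatin immunoprecipitation and sequencing was done with an antibody against FLAG after 2 hours at 18 °C, per the labels' protocols. Bowtie 1.2.3, bedtools and MACS2 2.1.2 are named, per the submitters' processing notes. Which genome build was used is not stated in those notes, the labels or the lists. In each deposited list the fold (a ratio to the control), the −log10 of the q-value and the score are the authors' values, and names carry the label of 1 library. The labels do not say how the controls or the replicates were used. The summit is the interval's start plus the deposited offset, or the midpoint where the offset left the interval (129 Atf1, 113 Pcr1, 93 Deb1 and 109 Orc1 peaks).

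Genes, starts and sequence are those of the RefSeq assembly ASM294v3. Of the Atf1 and Pcr1 summits with a fold of 2.5 or more, the share with TGACGT within 40 bp was highest at a shift of 0 bp on chromosome 1 (20.9%) and on chromosome 2 left of the mating-type region (21.6%). Right of 2160000 it was highest at 12220 bp (24.9%), which was subtracted there to assign summits to genes; 5093 protein-coding genes clear of the stretch between were used. Motifs were searched on both strands. Apart from the search for the shift, the shares of summits by motif or AT content left out chromosome 2 right of 2110000. The counting was tested on 1000 planted summits, all placed rightly. Python 3.11.15 with pandas 2.3.3 was used.

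The 4 genes, the gene lists and the motifs were chosen with earlier results of these data known. The genes named are the 4, the gene next upstream of each, pap1, zip1, deb1, orc1, up to 4 of the Sty1 pathway list by Atf1 fold, and the 3 most like atf1 and pcr1. Others, among them tdh1, cab5, pgm2, mcs4, sty1 and wis1, were named after their values were seen. Each list was used on its own, with no test, since each protein has 1 list; percentages of all genes serve as background. The alternatives were other windows, the coding start, stricter thresholds, midpoints, overlap and motif settings.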

Additional observations from a re-analysis of the deposited data

How the results depend on the processing

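Of 46 recomputed counts at the 4 genes, 37 stayed within 1.5 times their value, a limit that a change from 2 to 3 genes still meets. An upstream limit of 1500 bp raised the Atf1 and Pcr1 counts from 2 to 3 genes, against 31% and 24.3% of all genes. So did counting any peak with at least 1 bp in the window, against 29.5% and 23.3% of all genes. From the start of the coding sequence, 3 windows in place of 2 held the core TGACGT. Measured from the start of the coding sequence, the genes with a summit numbered 1 each in the Atf1, Pcr1 and Orc1 lists. The shares of all genes were then 23.7%, 18.5% and 14.1%. For Deb1 the count was 0, against 5.5% of all genes, and for all 4 proteins 0, against 0.962%. The cause of these lower counts lies in the leader of atf1, 1444 bp long, which puts its summits out of the window. A fold of at least 3 left 1 gene for Orc1, against 3.48% of all genes. An upstream limit of 500 bp left 1 window with the core TGACGT. With non-coding genes counted as the next gene, 0 peaks remained further upstream, since SPNCRNA.1457 covers the start of atf21. With midpoints in place of summits, 1 Atf1 or Pcr1 peak had the core within 100 bp. Without chromosome 2 from the mating-type region on, an alternative chosen after seeing the data, the shares of all genes with a summit were 26.9% (Atf1), 21.2% (Pcr1), 6.68% (Deb1) and 15.6% (Orc1). No paired analysis was possible because each protein has 1 list with no replicate columns. Leaving out replicates could not be done for the same reason. Depth is unknown, so that a gene without a peak, such as atf31, may lie below what the lists could call.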

Other observations

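Some further peaks lay within 6000 bp of atf1 and atf21, outside the genes and their upstream gaps. Upstream of isp4, the gene that follows atf1 on the other strand, Atf1, Pcr1 and Orc1 peaks coincided 8772, 8782 and 8808 bp from the start of atf1, with folds of 3.24, 2.91 and 1.97. On the other side, Atf1 and Pcr1 peaks of fold 3.35 and 3.56 had summits 4734 and 4719 bp upstream of the start of atf1, beyond fic1. Past atf21, an Atf1 peak of fold 2.75 and Pcr1 peaks of fold 2.18 and 2.52 had summits 5702, 5184 and 5733 bp from its start. The gap upstream of atf1 held peaks of all 4 lists, while no Deb1 summit lay between fic1 and 6000 bp upstream of atf1, or within 6000 bp past its end.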
